A study of Mus musculus with 2 samples.

Results

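The cells described here are the cycling fibroblasts of the healing mouse skin wound, 283 of the 8871 cells that passed the filters in both libraries together. They were chosen in steps from the deposited counts of unique molecular identifiers (UMIs, 1 per captured transcript). A cell was first gated as collagen-making when Col1a1, Col1a2 and Col3a1 made up at least 1% of its UMIs and the myeloid genes Lyz2, Tyrobp and Fcer1g under 0.1%, which held for 2834 cells. Each gated cell was then scored by the mean of the natural log of 1 plus UMIs per 10000 over the 6 genes Top2a, Mki67, Ube2c, Cdk1, Anln and Pclaf, and the top 10% of gated cells over both libraries, at a score of 0.279 or more, are the members. Because measured values chose the members, every difference between members and the other 2551 gated cells is a description and is not tested.

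Full-thickness wounds, 10 mm in width, were made on the backs of male wild-type C57BL/6 mice and taken on day 6. The young library came from mice of 2 months and the aged library from mice of 24 months, with no other treatment in either group. Each age is 1 library of several pooled animals, whose number is not given in the sources used here. There is therefore no replicate and no test between ages. Age, the pooled animals and the preparation of the library cannot be told apart, and all intervals below are 95% intervals that cover counting error only.

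Fibroblasts of uninjured skin are mostly out of the cell cycle, and after wounding they divide, migrate into the provisional matrix, deposit collagen and in part become contractile myofibroblasts. A dividing cell licenses its replication origins in G1 with the MCM helicase, copies its DNA and makes histones in S phase, and then builds the spindle and divides in G2 and M. Cyclins with their CDK kinases drive these steps, and CDK inhibitors such as p21 (Cdkn1a), p57 (Cdkn1c) and p16 (from Cdkn2a) restrain them. The last of these are also used as marks of senescent cells, which have left the cycle for good. In quiescent cells the DREAM repressor complex binds the promoters of cell cycle genes. The same sites later serve E2F factors in genes of the G1/S step, through E2F elements, and MuvB with B-MYB and FOXM1 in genes of G2 and M, through cell cycle homology region (CHR) elements, often near CCAAT boxes bound by NF-Y.

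The promoters of the 6 scoring genes are shown because they carry these elements in plain sight, and those of Mcm3 and Mcm6 because they show the S phase form. The last 2 were picked after they were seen to hold an E2F element. Each window runs from 120 bases before to 30 after the RefSeq start, 5′ to 3′ on the gene's strand, in build GRCm38.p6. Capitals mark, on either strand, CHR elements (TTTGAA), NF-Y boxes with the letters CCAAT, and E2F elements (TTTCCCGC or TTTGGCGC).
Top2a, chr11:99024160-99024309, minus strand: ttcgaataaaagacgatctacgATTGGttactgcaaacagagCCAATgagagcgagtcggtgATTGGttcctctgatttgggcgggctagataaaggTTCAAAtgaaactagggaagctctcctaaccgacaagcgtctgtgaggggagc
Mki67, chr7:135716350-135716499, minus strand: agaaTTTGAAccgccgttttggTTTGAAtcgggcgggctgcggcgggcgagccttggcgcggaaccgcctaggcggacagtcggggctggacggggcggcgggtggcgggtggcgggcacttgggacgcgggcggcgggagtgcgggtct
Ube2c, chr2:164769809-164769958, plus strand: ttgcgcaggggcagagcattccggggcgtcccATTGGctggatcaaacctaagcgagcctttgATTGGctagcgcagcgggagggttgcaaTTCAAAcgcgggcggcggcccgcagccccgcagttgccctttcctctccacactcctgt
Cdk1, chr10:69352883-69353032, minus strand: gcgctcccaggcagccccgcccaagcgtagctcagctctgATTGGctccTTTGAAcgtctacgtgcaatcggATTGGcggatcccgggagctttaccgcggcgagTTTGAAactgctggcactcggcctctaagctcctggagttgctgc
Anln, chr9:22389177-22389326, minus strand: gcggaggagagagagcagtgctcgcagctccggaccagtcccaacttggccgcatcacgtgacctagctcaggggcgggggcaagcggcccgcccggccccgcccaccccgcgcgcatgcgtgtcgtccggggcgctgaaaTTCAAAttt
Pclaf, chr9:65890203-65890352, plus strand: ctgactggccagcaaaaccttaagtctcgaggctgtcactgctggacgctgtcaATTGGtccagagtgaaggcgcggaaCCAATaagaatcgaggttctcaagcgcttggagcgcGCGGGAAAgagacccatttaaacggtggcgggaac
Mcm3, chr1:20820283-20820432, minus strand: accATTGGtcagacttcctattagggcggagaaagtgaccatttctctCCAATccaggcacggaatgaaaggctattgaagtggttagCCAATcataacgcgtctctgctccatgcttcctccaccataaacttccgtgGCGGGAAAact
Mcm6, chr1:128359676-128359825, minus strand: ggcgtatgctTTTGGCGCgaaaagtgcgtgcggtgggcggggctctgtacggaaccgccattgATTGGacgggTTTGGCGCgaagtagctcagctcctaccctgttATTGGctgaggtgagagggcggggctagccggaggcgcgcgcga
In these windows Top2a, encoding DNA topoisomerase II alpha, had 3 CCAAT boxes and 1 CHR element, and Cdk1, the kinase of mitotic entry, had 2 of each. Pclaf, a partner of the replication clamp PCNA, had 1 E2F element and no CHR element. Over whole RefSeq promoters of 300 bases, from 250 before to 50 after the start, 23 of 35 matched genes of the G2/M lists held a CHR element (65.7%), against 5 of 29 of the S lists (17.2%) and 20.2% of 27025 genes with a promoter. E2F elements were in 11 of 29 S list genes (37.9%), in 0 of 35 G2/M genes and in 1.80% of all. CCAAT boxes were common in both, with 69.0% and 71.4% against 41.1% of all genes. The collagen and matrix list, as genes outside the cycle, had CCAAT boxes in 3 of 14 promoters, E2F elements in 0 of 14 and CHR elements in 5 of 14 (35.7%), the last above the share of all genes. A match of letters is a description, not a site or a cause.

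The scores ran without a break across the threshold. The 10 members just inside it scored 0.279 to 0.295, on 4 to 24 UMIs of the scoring genes, and the 10 gated cells just outside scored 0.242 to 0.277, on 3 to 16 UMIs. Most members lay far above: the median score was 1.08 in the young and 1.05 in the aged library, with the highest at 1.88 and 1.87, while the median of the other gated cells was 0. All 6 scoring genes were detected in 66 of 100 young members and in 140 of 183 aged members (76.5%), and at most 3 in 7 and 8. The level of Mki67, the gene of the Ki-67 antigen, was 341 CPM (counts scaled to a common total, from UMIs summed over cells) in young members against 3.42 in the other gated cells, and 338 against 6.54 CPM in the aged library. Top2a was at 454 and 415 CPM in young and aged members against 3.14 and 4.02.

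Summed over cells, the members carried fibroblast markers that the choice did not use. The summed level of 9 fibroblast genes, among them Pdgfra, Thy1 and Dpt, was 7848 CPM in young and 6691 CPM in aged members, against 12914 and 10270 in the other gated cells, and none of the 9 was at 0. Macrophage markers summed to 33.7 and 25.4 CPM in members (18.3 and 19.2 in the others), with none of 6 at 0. Neutrophil, endothelial and pericyte markers were likewise none at 0, and the keratinocyte list had 3 and 4 of 5 at 0. Neutrophil markers summed to 49.9 and 34.8 CPM (206 and 47.9 in the others), endothelial to 12.9 and 16.1 (14.2 and 19.5), keratinocyte to 11.1 and 6.80 (9.74 and 7.92) and pericyte to 18.4 and 28.2 (27.1 and 14.1). T and NK cell markers summed to 18.7 CPM in young members, from 6 cells, and to 2.34 CPM in aged members (2.85 and 0.892 in the others). The skeletal muscle list had 3 of 6 genes at 0 in members of each library.

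Members were deep cells. Their median was 67457.5 UMIs and 7194 genes in the young library and 74248 UMIs and 7572 genes in the aged library, against 41691 and 48949 UMIs in the other gated cells. Mitochondrial UMIs had a median of 1.24% and 1.07% in members and of 1.28% and 1.06% in the others. The doublet caller marked 3 young and 2 aged cells, too few for it to have worked, and doublets may be present. Among members, 11 of 100 young and 19 of 183 aged cells (10.4%) were in the top 4% of doublet scores of their library, against 3.21% and 3.48% of the other gated cells, and their part in the results was not tested beyond leaving them out. The libraries shared 3 barcodes, none of them a member.

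Cycling cells were a larger share of the collagen-gated cells in the aged library. They were 100 of 1472 in the young library, 6.79% (5.56 to 8.20, exact binomial), and 183 of 1362 in the aged library, 13.4% (11.7 to 15.4). The aged share was 1.98-fold the young share (1.54 to 2.55). The gated cells themselves were 31.6% and 32.4% of filtered cells, so the difference lay within the gate and not in its size. Outside the gate, where immune, endothelial and epithelial cells lie, 171 of 3189 young cells (5.36%) and 152 of 2848 aged cells (5.34%) reached the same score, a ratio of 0.995 (0.795 to 1.25). The share of gated cells with 3 or more of the 6 genes detected was 7.95% and 16.8%, and the share with no UMI of any of them 63.9% and 53.2%. Aged gated cells were deeper, with a median of 50782.5 against 42563 UMIs. Scored on cells thinned to 5000 UMIs, where tied scores let in 171 young and 277 aged cells, the ratio was 1.75. Scored on cells thinned to 20000 UMIs, an alternative chosen after seeing the data, 2.02. Leaving out cells with 3 or more UMIs of other cell classes, which left 23 young and 106 aged members, gave 2.95. That cut was not scaled for depth and fell unequally on the libraries. Neutrophil markers alone had 3 or more UMIs in 57.0% of young and 9.29% of aged members, and in 34.3% and 3.48% of the others.

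**Figure D1:**
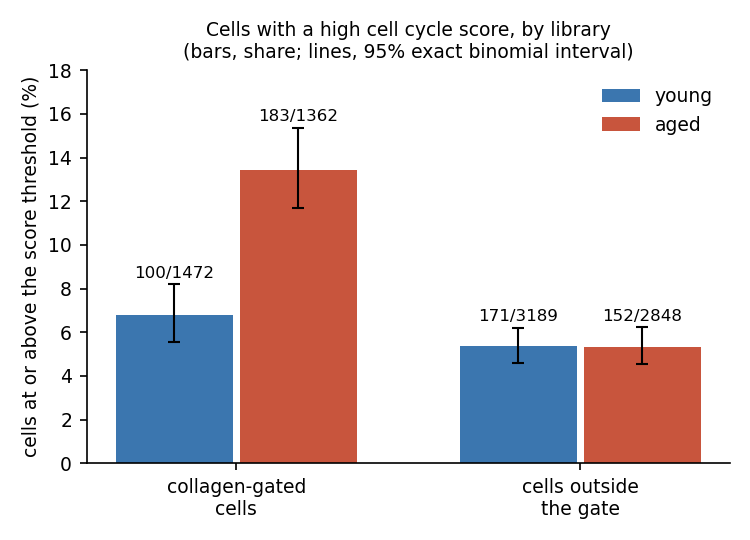
Share of cells at or above the score threshold (y axis, %) among collagen-gated cells and among cells outside the gate, in the young and the aged library (bars), with exact 95% binomial intervals (lines) and the counts above each bar. The aged bar stands at 13.4% against 6.79% inside the gate, and both bars are near 5.3% outside it.

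The position of the members in the cycle was read from summed UMIs of 34 S genes (licensing and DNA synthesis lists) and 42 G2/M genes (mitotic kinase and spindle lists with the B cyclins), without the scoring genes. With each member thinned to 5000 UMIs, 55 of 96 young members (57.3%) and 107 of 180 aged members (59.4%) had more G2/M than S UMIs, a ratio of 1.04 (0.743 to 1.46). The interval, of counting error only, included equal shares, and with 1 library per age no difference between ages was tested. Without thinning the shares were 64.0% and 61.2%. Members formed a range and not separate types: 22 young and 37 aged thinned members had between 40 and 60% of these UMIs from G2/M genes.

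Regulators and scoring genes outside these sums were split between the same cells. Ccne2, the E cyclin gene of S phase entry, was at 62.9 CPM in young members with more S UMIs and at 7.59 CPM in those with more G2/M UMIs. In aged members it was at 38.0 and 5.89 CPM. E2f1, the activating E2F of the G1/S step, was at 37.6 against 11.2 CPM in young and 41.1 against 10.5 CPM in aged members. Ube2c, the ubiquitin-conjugating enzyme of the anaphase-promoting complex, ran the other way, at 34.8 against 321 CPM and 49.7 against 385 CPM. The phosphatase gene Cdkn3 likewise was at 6.67 against 43.0 CPM in young and 6.55 against 64.0 CPM in aged members. Pclaf, with the E2F element in the window above, was the scoring gene higher on the S side, at 364 against 205 CPM in young and 300 against 193 CPM in aged members.

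**Figure D2:**
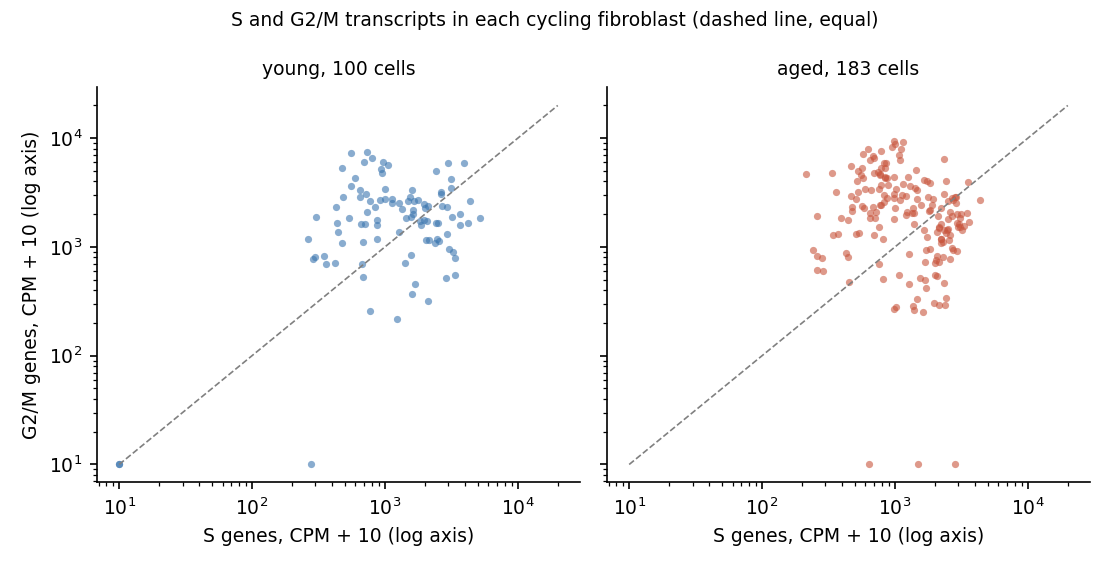
Summed S genes (x axis) and G2/M genes (y axis) in each member, as CPM plus 10 on log axes, without thinning, for 100 young (left) and 183 aged members (right). The dashed line marks equal sums, and in both libraries cells spread on both sides of it with no gap.

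A gene was counted as higher or lower in members when it had at least 50 UMIs in each library over the gated cells and differed by 1.5-fold or more in both libraries. Of 13374 genes, 1736 were higher (13.0%) and 1108 lower (8.28%). The split depended on the scaling: 61.0% of the calls were higher when libraries were scaled to equal totals and 41.9% with TMM factors, which moved the median log2 ratio of all genes by -0.27 in the young and -0.12 in the aged library. Counts below are on equal totals. With TMM factors those of the replication, mitotic, cyclin, transcription factor and DNA repair lists were the same. The counts of higher and lower genes were then 2 and 1 for CDK inhibitors, 2 and 1 for p53 targets, 1 and 4 for growth factors and 7 and 0 for contractile genes. Lower genes numbered 5 for receptors, 5 for matrix, 12 for the secretory list, 17 for interferon and 12 for adventitial genes. On equal totals the median gene had a log2 ratio of 0.15 in the young and 0.07 in the aged library.

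The replication machinery was higher throughout. All 15 licensing and helicase genes were higher in both libraries, with a median log2 ratio of 3.16 in the young and 2.84 in the aged library. The helicase subunit gene Mcm5 was at 20.7 against 0.943 CPM in the young and 21.9 against 1.43 CPM in the aged library, and Mcm3 at 53.3 against 2.78 CPM and 50.9 against 4.83 CPM. The smallest young ratios were those of Orc6, of the origin recognition complex, 3.90 with 3.21 in the aged library, and of the licensing factor Cdt1, 3.98 with 6.56. All 19 DNA synthesis genes were higher too. Tk1, thymidine kinase, was at 56.4 against 0.596 CPM in the young and 52.6 against 1.03 CPM in the aged library. Rrm2, a subunit of the enzyme that makes deoxynucleotides, was at 59.4 against 2.68 CPM and 57.9 against 2.49 CPM. Pole, the catalytic subunit of polymerase epsilon, had ratios of 29.2 and 13.1. The smallest young ratios were those of Slbp, which binds histone mRNA, 2.43 with 1.92 in the aged library, and of Pcna, the sliding clamp, 3.88 with 4.02. All 13 tested DNA repair genes of S phase were higher, with the widest young ratios in Exo1 (147, and 62.6 aged) and Rad51ap1 (119 and 73.0) and the smallest in Xrcc2 (3.65 and 5.10) and Chek1 (4.41 and 3.49).

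The 8 replication-dependent histone genes counted under their present symbols were all higher, with median log2 ratios of 6.92 and 5.79. H1f5, a linker histone gene, was at 256 against 1.47 CPM in the young and 366 against 1.68 CPM in the aged library. H1f1 was at 82.1 against 0.199 CPM and 90.7 against 0.320 CPM, and H2ac4 had ratios of 271 and 257. The smallest were those of H1f2 (6.60 and 5.26) and H4c3 (13.8 and 10.3). Among all genes ranked by the smaller of the 2 ratios, the 12 highest were Pbk, Esco2, H3c2, Neil3, H3c3, H1f1, H2ac4, H2ac22, Bub1, Depdc1a, Plk1 and H1f5, of which 6 are histone genes. Most replication-dependent histone mRNAs lack a poly(A) tail and their genes are near copies of each other, so their counts in a 3′ poly(A) assay are uncertain.

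Mitotic genes were higher as well. All 17 mitotic kinase and checkpoint genes were higher, with median log2 ratios of 6.00 and 5.54, as were all 26 spindle, kinetochore and cytokinesis genes and 15 of 16 chromatin condensation and lamina genes. Pbk, a mitotic kinase gene, was at 51.0 against 0.0662 CPM in the young and 53.7 against 0.135 CPM in the aged library. Bub1, of the spindle checkpoint, was at 48.8 against 0.149 CPM and 43.9 against 0.219 CPM. Hmmr, a spindle-associated hyaluronan receptor, was at 130 against 0.298 CPM in the young and 129 against 0.976 CPM in the aged library. Cenpf, a kinetochore gene, was at 114 against 0.496 CPM and 118 against 1.13 CPM. At the low end, the tubulin gene Tubb4b had ratios of 3.30 and 3.54, the cytokinesis kinase gene Cit 6.37 and 6.53 and the phosphatase gene Cdc25b 5.70 and 5.34. Lmnb1, the lamin B1 gene whose loss is used as a mark of senescence, was at 58.9 against 19.2 CPM in the young and 74.6 against 22.9 CPM in the aged library. The condensin genes Ncapg and Ncaph had the widest ratios of that list, 86.9 and 93.8 and 31.6 and 29.7. The lamin A gene Lmna had ratios of 1.36 and 1.55 and was the 1 of 16 that did not pass. Outside the fixed cell cycle lists the leading genes were also of this kind, among them Esco2, the cohesin acetyltransferase gene, and the kinesin gene Kif15.

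Regulators were split. Of 14 tested cell cycle transcription factors, 9 were higher in both libraries. The repressor E2f8 was at 15 against 0.347 CPM in the young and 10.7 against 0.488 CPM in the aged library. Foxm1, the G2/M activator, was at 16.1 against 0.596 CPM and 20.8 against 0.976 CPM. The pocket protein gene Rbl2, a DREAM subunit of resting cells, had ratios of 0.982 and 0.976. Myc, the growth-promoting factor, had 0.567 and 0.784 and did not pass in the aged library. Of 10 genes of the cyclosome, SCF and licensing control 9 were higher, led in the young library by Cdca3 with ratios of 56.2 and 24.4 and by Fbxo5 (EMI1) with 38.6 and 58.8. The exception was Pttg1, the securin gene, with 1.19 and 1.17.

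**Figure D3:**
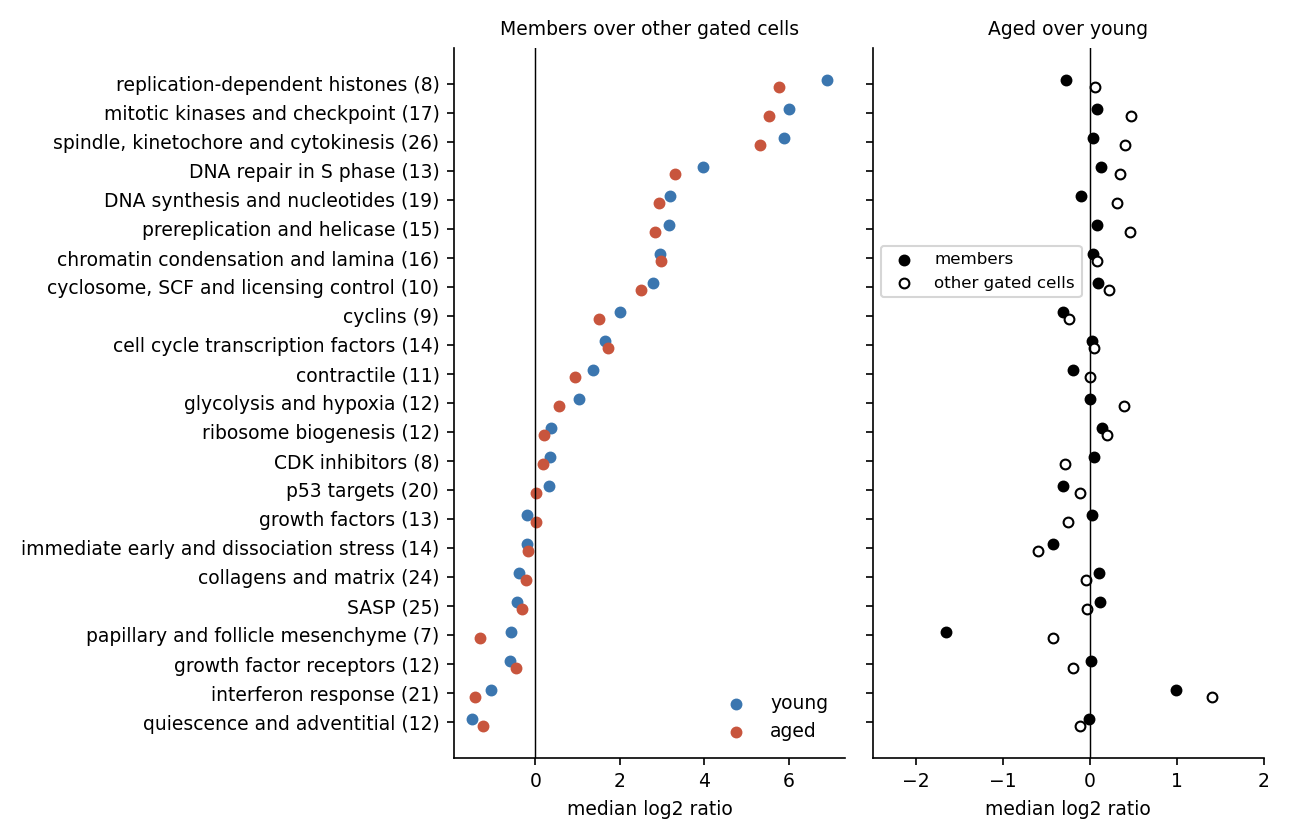
Median log2 ratio of each gene list (rows, tested genes in brackets) in members over other gated cells (left, by library) and in aged over young cells (right, in members and in other gated cells). Apart from the CDK inhibitors, the cell cycle lists lie farthest to the right in the left panel. Their medians in members in the right panel lie between -0.31 and 0.13. There the interferon list stands at 0.99 in members and 1.41 in the other gated cells.

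Of 9 cyclins, the A, B and E types (Ccna2, Ccnb1, Ccnb2, Ccne1 and Ccne2) were higher in members of both libraries. Ccna2 was at 57.0 against 0.314 CPM in the young and 62.6 against 0.370 CPM in the aged library. D cyclins, which couple growth signals to the cycle, did not pass. Ccnd2 was at 139 against 174 CPM in the young and 112 against 140 CPM in the aged library. Ccnd1 was at 31.5 CPM in young members against 20.8 CPM, a ratio of 1.52, and at 9.29 CPM in aged members against 12.4 CPM, a ratio of 0.751. Without the 10 highest cells of each group these ratios were 0.885 and 0.444. Those 10 cells held 60.6% of the Ccnd1 UMIs of young members and 53.5% of those of aged members, against 24.7% and 15.9% in the others. Because members are fewer than the others, 10 cells are a larger part of them. Where few cells hold a gene, this trim, here and below, can therefore lower members more.

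CDK inhibitors were present in cycling cells and differed by gene. Cdkn1a, encoding p21, was at 524 CPM in young members against 357 CPM in the other gated cells, a ratio of 1.47 (1.42 to 1.52). In the aged library it was at 356 against 313 CPM, a ratio of 1.14 (1.10 to 1.17). Neither reached 1.5-fold. The 10 members with the most held 43.6% of the young and 23.6% of the aged Cdkn1a UMIs of members. The 10 highest of the others held 10.3% and 14.1%. Without the 10 highest cells of each group, an unequal part of each, the ratios were 1.09 and 1.06. With the top 20% of gated cells as members the aged ratio was 0.989. In cells thinned to 5000 UMIs, 61 of 96 young members (63.5%) and 121 of 180 aged members (67.2%) had a Cdkn1a UMI, against 57.3% and 51.5% of the other gated cells. Unthinned, these shares were 92.0% and 96.7% in members. In neutrophil-rich barcodes Cdkn1a was detected in 87.3% and 85.9%, unthinned, at median depths of 6101 and 4488 UMIs, and thus give no background for this gene.

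Cdkn1c, encoding p57, was the inhibitor lower in members of both libraries. It was at 33.2 against 154 CPM in the young and 20.4 against 86.8 CPM in the aged library, ratios of 0.215 (0.187 to 0.245) and 0.235 (0.208 to 0.265). Over the alternatives the ratios ranged from 0.178 to 0.402 and from 0.194 to 0.489. In thinned cells 10.4% of young members had a UMI of it against 40.8% of the other gated cells, and 5% against 26.4% in the aged library. Unthinned, the shares in members were 56.0% and 49.7%, against 77.0% and 66.6%. In neutrophil-rich barcodes they were 1.58% and 0.722%, at median depths of only 6101 and 4488 UMIs against 67457.5 and 74248 in members.

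Cdkn2a, the gene of p16 and ARF, was low in members and others alike. It was at 10.7 against 17.9 CPM in the young library, which is 0.594-fold (0.462 to 0.753). In the aged library it was at 6.95 against 6.24 CPM, or 1.11-fold (0.879 to 1.40). The young ratio turned to 1.73 with members chosen anew among cells with under 3 UMIs of other cell classes, 23 in the young library. With scores on thinned cells it was 0.994. A few cells carried Cdkn2a: the 10 highest held 53.4% of the UMIs of young and 75.8% of those of aged members. In the others the 10 highest held 33.9% and 45.6%. Without the 10 highest of each group, an unequal part of each, the ratios were 0.470 and 0.529. In thinned cells 4 of 96 young and 4 of 180 aged members had a UMI (4.17% and 2.22%), against 5.31% and 2.00% of the other gated cells. Unthinned, the shares were 37.0% and 17.5% of members against 15.6% and 10.0%. Neutrophil-rich barcodes had 0 of 1269 young and 0 of 831 aged cells with a UMI, for which a floor of 3 counts allows shares of up to 0.236% and 0.361%, and the exact intervals end at 0.290% and 0.443%. These barcodes were far shallower than members, as given above, so the thinned shares of members are nearer to them in depth. The genes Cdkn2c (p18), Cdkn2d (p19) and Cdkn3 were higher in members of both libraries, with ratios of 1.65 and 2.31, 4.32 and 3.99, and 37.0 and 27.6. Of 20 p53 targets, Eda2r (2.04 and 1.68) and Phlda3 (1.98 and 1.69) were higher in both libraries and none was lower. Of all genes tested 13.0% were higher and 8.28% lower. Mdm2, the feedback inhibitor of p53, had 1.39 and 1.05.

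**Figure D4:**
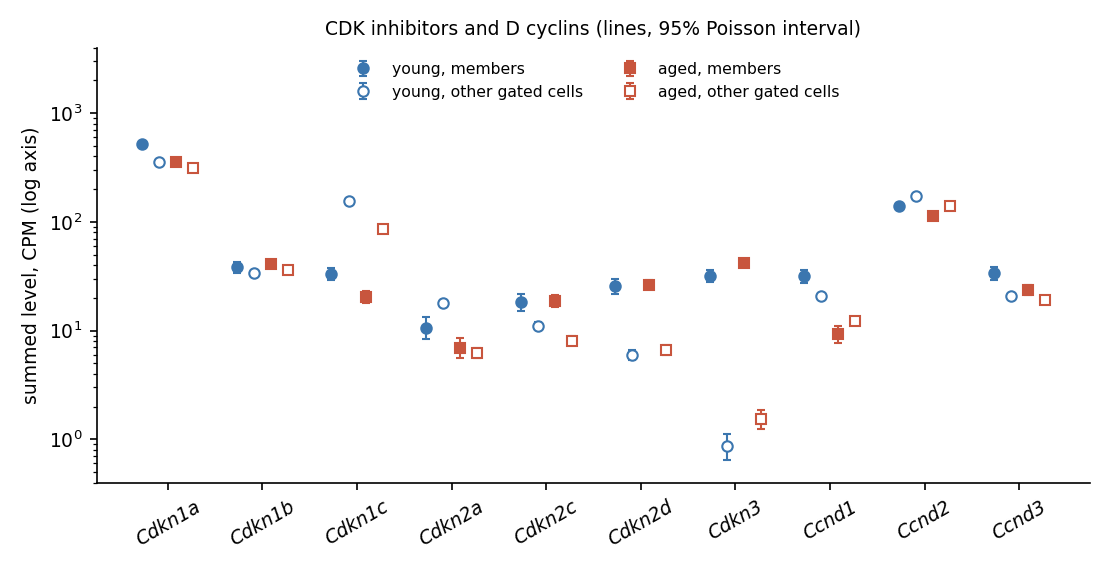
Summed level (y axis, CPM, log axis) of 7 CDK inhibitors and 3 D cyclins in members (filled) and other gated cells (open) of the young (circles) and aged library (squares), with exact 95% Poisson intervals. Cdkn1c is lower in members of both libraries, Cdkn2d and Cdkn3 are higher, and Ccnd1 is at 31.5 CPM in young and 9.29 CPM in aged members.

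Outside the cell cycle, contractile genes were higher in members. Of 11 tested, 8 were higher in both libraries on equal totals and 7 with TMM factors, and none was lower. Acta2, the smooth muscle actin gene of myofibroblasts, was at 294 against 67.4 CPM in the young and 359 against 109 CPM in the aged library. With the top 5% as members the young ratio of 4.37 became 2.82. Tpm2, a tropomyosin gene, was at 237 against 71.5 CPM and 280 against 120 CPM. Tagln (transgelin) had ratios of 2.37 and 1.90, while Vcl (vinculin) had 1.11 and 1.09 and Myh9 (non-muscle myosin) 1.11 and 1.33. In thinned cells 37.5% of young and 45% of aged members had an Acta2 UMI, against 7.03% and 15.7% of the other gated cells. Unthinned these shares were 63.0% and 80.9% against 21.1% and 36.0%.

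Glycolytic genes were higher by less. Of 12, 6 were higher in both libraries on equal totals (Eno1, Tpi1, Pgk1, Pkm, Pgam1 and Ldha), but 0 with TMM factors, and Hk2, the hexokinase that starts the pathway, was lower under both. Ldha, lactate dehydrogenase A, was at 702 against 348 CPM in the young and 629 against 405 CPM in the aged library. Hk2 was at 436 against 828 CPM and 445 against 701 CPM. None of 12 ribosome biogenesis genes passed in both libraries, with Npm1 (nucleophosmin) at 1.66 and 1.41 and Polr1b (RNA polymerase I) at 0.670 and 1.11 as the ends of the list in the young library. Among 13 growth factors, Pdgfc, Pdgfa and Grem1 were higher and Fgf2, Igf1 and Fgf10 lower in both libraries. Pdgfc was at 138 against 68.4 CPM in the young and 191 against 105 CPM in the aged library.

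Genes of resting adventitial fibroblasts were lower. Of 12, 10 were lower in both libraries and none higher, with median log2 ratios of -1.50 and -1.24. Clec3b, encoding tetranectin, was at 59.9 against 388 CPM in the young and 120 against 415 CPM in the aged library. Pi16, a marker of universal fibroblasts, was at 60.3 against 339 CPM and 136 against 414 CPM. Gas6, the growth arrest-specific TAM receptor ligand first found in serum-starved fibroblasts, was at 46.7 against 294 CPM and 24.9 against 136 CPM. Its ratios of 0.159 and 0.183 became 0.395 and 0.302 with the top 20% as members, and the young one 0.294 among cells with under 3 UMIs of other classes. Ly6a (Sca-1) was nearest to the others, at ratios of 0.779 and 0.683.

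Matrix genes were less affected. Of 24 collagen and matrix genes 4 were lower in both libraries (Eln, Dcn, Lum and Col14a1) and 20 did not pass. Eln, the elastin gene, was at 32.1 against 243 CPM in the young and 28.2 against 118 CPM in the aged library. The gate genes Col1a1, Col1a2 and Col3a1 had ratios of 0.608 to 0.666 in the young and 0.727 to 0.850 in the aged library. Col12a1, a fibril-associated collagen, was the only one of the list at 1.2-fold or more in both libraries, at 1.23 and 1.27. The list of secreted factors linked to senescence (SASP) had 25 genes, of which 9 were lower in both libraries and none higher. Mmp2, gelatinase A, was at 394 against 1113 CPM in the young and 369 against 732 CPM in the aged library. Cxcl12, a chemokine gene, had ratios of 0.404 and 0.663, and Lif, of the interleukin 6 family, 1.28 and 1.49. Spp1, osteopontin, had ratios of 2.17 and 1.13, and without the 10 highest cells of each group 1.07 and 0.889. Among 12 growth factor receptors Met and Fgfr1 were lower in both libraries. Pdgfrb, the receptor of PDGF-B, had 1.07 and 1.07.

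Interferon response genes were lower in members of both ages. Of 21, 14 were lower in both libraries and none higher, with median log2 ratios of -1.05 and -1.44. Ifit1, an antiviral RNA-binding protein gene, was at 3.8 against 59.2 CPM in the young and 51.5 against 335 CPM in the aged library. Iigp1, an interferon-inducible GTPase gene, was at 42.5 against 186 CPM and 83.2 against 328 CPM, ratios of 0.229 and 0.254 that became 0.441 and 0.457 with the top 20% as members. Of the Ifit1 UMIs of young members, 46.2% lay in 1 cell. When gated cells were ranked by the interferon list, 2% of young and 5.46% of aged members fell in the top 10%, against 2.99% and 19.5% of the other gated cells. The 12 genes lowest in members by the smaller ratio were Cys1, Gask1a, Galnt15, Slco2b1, Aox3, Nalcn, Col4a3, Pcdh11x, Zim1, Rsad2, Slc22a18 and Ifit1. Apart from Rsad2 and Ifit1, both interferon genes, these had 1 to 13 UMIs in members.

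The share of members differed between rankings of the gated cells by other genes. Ranked by Acta2 and Crabp1, the latter a retinoic acid-binding protein gene of upper dermal fibroblasts, 36.0% of young and 29.0% of aged members were in the top 10% of gated cells, against 6.71% and 8.65% of the others. In all, 89 of the 283 cells in that top 10% were members (31.4%). Ranked by Pi16 and Dpp4, of adventitial fibroblasts, the shares were 1% and 1.64% against 8.24% and 14.1%. Ranked by Cxcl14, C7 and Cilp they were 7% and 1.64% against 10.4% and 11%. By Coch, Wif1 and Igfbp2 only 136 gated cells had a value above 0, and these were taken in place of a top 10%. They held 8% of young and 3.28% of aged members, against 7.22% and 1.95% of the others. By Cdkn1a the shares in the top 10% were 20% and 12% against 10.8% and 7.89%, and by Cdkn2a 24% and 8.20% against 12.6% and 6.02%, without correction for the greater depth of members.

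Members were therefore also compared with other gated cells inside the Acta2 and Crabp1 top 10%, a comparison chosen after the values above were seen. It set 36 young members against 92 others and 53 aged members against 102 others. Of 8753 genes tested, 640 were higher (7.31%) and 300 lower (3.43%) in both libraries. Contractile genes no longer stood apart, with 0 of 11 higher and 0 lower, and neither did glycolysis, with 0 of 12 in each direction. The Acta2 part of this was fixed by the ranking. The groups were still not alike in it: Acta2 had ratios of 1.15 and 1.31, Crabp1 0.616 and 0.669, and Tagln 0.664 and 0.770. Fewer adventitial genes were lower, 3 of 12, and fewer interferon genes, 5 of 13. Gas6 was at 15.1 against 120 CPM in the young and 6.26 against 42.1 CPM in the aged library, ratios of 0.126 (0.0875 to 0.177) and 0.149 (0.0945 to 0.224).

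Cdkn2a was lower in members of both libraries within this Acta2 and Crabp1 state. It was at 13.0 CPM in young members against 68.2 CPM in the others, which is 0.190-fold (0.127 to 0.275). In the aged library it was at 3.50 against 20.2 CPM, or 0.174-fold (0.0923 to 0.302). Young members had 31 and aged members 14 UMIs of Cdkn2a, with 71.0% and 85.7% of them in the 5 highest cells. The others had 346 and 130, with 47.4% and 75.4%. Without the 5 highest of each group, a larger part of members, ratios were 0.117 (0.0526 to 0.227) and 0.106 (0.0123 to 0.414). The aged one rests on 0.555 against 5.26 CPM. In thinned cells 2 of 35 young members (5.71%) had a UMI against 17 of 90 others (18.9%), and 2 of 52 aged members (3.85%) against 6 of 98 others (6.12%). Unthinned, 33.3% and 13.2% of members had a UMI, against 41.3% and 22.5% of the others, at median depths of 67457.5 and 73944 UMIs in members and 49196 and 61975.5 in the others. Cdkn1a did not keep 1 direction here, with ratios of 0.783 in the young and 1.16 in the aged library. Cdkn1c remained lower, at 0.559 and 0.423.

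Over all members few cell cycle genes passed between the ages. More did in members chosen anew among cells with few UMIs of other cell classes. A gene was counted here at 50 UMIs or more over the members of both libraries and a 1.5-fold difference, which gave 733 of 11358 genes higher (6.45%) and 809 lower (7.12%) in aged members. These counts can hang on single cells: for 1119 of these 1542 genes a single member held over 10% of the UMIs in a library. The share among all 11358 genes was not taken, and at low totals a few UMIs in 1 cell are enough for it. None of 15 licensing, 19 DNA synthesis or 26 spindle genes passed in either direction, and the licensing list had a median log2 ratio of 0.08. The cut to cells with under 3 UMIs of other classes fell unequally on the libraries, as given above. Members chosen anew under it were 23 young and 106 aged cells. In these, 1119 of all 8663 genes tested were higher and 1072 lower in aged members. Of 26 spindle genes 14 were higher, and of 17 mitotic kinase genes 7. There 8 of 18 DNA synthesis and 5 of 9 repair genes were lower, and of 12 licensing genes 4 were lower and 1 was higher. The share with more G2/M UMIs had an aged/young ratio of 1.44 (0.689 to 3.49) in these cells. Over all members, the histone genes H1f3 and H4c3, the repair gene Brca2 and the pocket protein gene Rb1 were lower in aged members. Of 17 mitotic kinase and checkpoint genes, Plk1, the polo-like kinase of mitosis, and Cdc20, the activator of the anaphase-promoting complex, were higher. Plk1 was at 20.6 CPM in young and 35.1 CPM in aged members, with a ratio of 1.70 (1.41 to 2.07). It was at 27.6 and 50.8 CPM in those with more G2/M UMIs. Cdc20 was at 27 and 43.9 CPM.

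Among cyclins, Ccnd1 and Ccne1 were lower in aged members. Ccnd1 was at 31.5 CPM in young and 9.29 CPM in aged members, a ratio of 0.294 (0.235 to 0.368). It was 0.131 (0.0882 to 0.193) among cells with under 3 UMIs of other classes and 0.408 with the top 20% as members. Among the other gated cells the ratio was 0.595. In members with more S UMIs it was at 62.4 and 11.4 CPM, and in those with more G2/M UMIs at 17.9 and 8.01 CPM. Ccne1 was at 14.5 and 9.14 CPM, a ratio of 0.632. Of 8 CDK inhibitors, Cdkn1c and Cdkn2a were lower in aged members, and 1 of the 8 was with TMM factors. Cdkn1c was at 33.2 and 20.4 CPM, a ratio of 0.615 (0.515 to 0.737) against 0.562 in the other gated cells. Cdkn2a was at 10.7 and 6.95 CPM, a ratio of 0.652 (0.475 to 0.897) against 0.348, with 43.2% of its UMIs in aged members in 1 cell. Cdkn1a was at 524 and 356 CPM, which did not pass, with a ratio of 0.679 (0.650 to 0.709) against 0.876 in the other gated cells. In members with more G2/M UMIs it was at 564 and 336 CPM and in those with more S UMIs at 435 and 389 CPM, and the difference between these was not tested. Of 20 p53 targets 5 were lower in aged members and none higher (Gdf15, Ddit4, Bbc3, Phlda3 and Trp53inp1), with a median log2 ratio of -0.31 against -0.12 in the other gated cells. Immediate early and dissociation stress genes were lower as well, with 6 of 14 lower and none higher in aged members (Hspa1a, Hspa1b, Fos, Jun, Atf3 and Nr4a1), at a median of -0.43 against -0.60 in the others. Their part in the other age differences was not tested.

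Most interferon response genes were higher in aged members. Of 20 tested 16 were higher and 1, Irf1, lower, with a median log2 ratio of 0.99, beside 18 of 21 higher and a median of 1.41 in the other gated cells. There 8.61% of all tested genes were higher and 6.57% lower in the aged library. Cxcl10, a T cell chemokine gene, was at 150 CPM in young and 433 CPM in aged members, a ratio of 2.88 (2.70 to 3.08). Isg15, the ubiquitin-like interferon product, was at 54.6 and 121 CPM. Ifit1 was at 3.8 and 51.5 CPM, a ratio of 13.6 (9.17 to 20.9). For Cxcl9, at 30.8 and 185 CPM, a single cell held 55.0% of the UMIs of young members. The age ratios were uneven between phases. In members with more S UMIs they were 4.10 for Cxcl10, 1.22 for Isg15, 1.20 for Cxcl9 and 0.833 for Iigp1. In those with more G2/M UMIs they were 2.82, 3.09, 16.1 and 4.74, and the difference between phases was not tested. Without the highest member of each gene in each library, 16 of 20 were still higher and the median was 1.21. This takes a larger part of 100 young than of 183 aged members. Over all genes the higher ones then rose from 733 to 915 and the lower ones fell from 809 to 653. With a collagen gate of 2% the interferon count was 9 of 20 and its median 0.58.

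**Figure D5:**
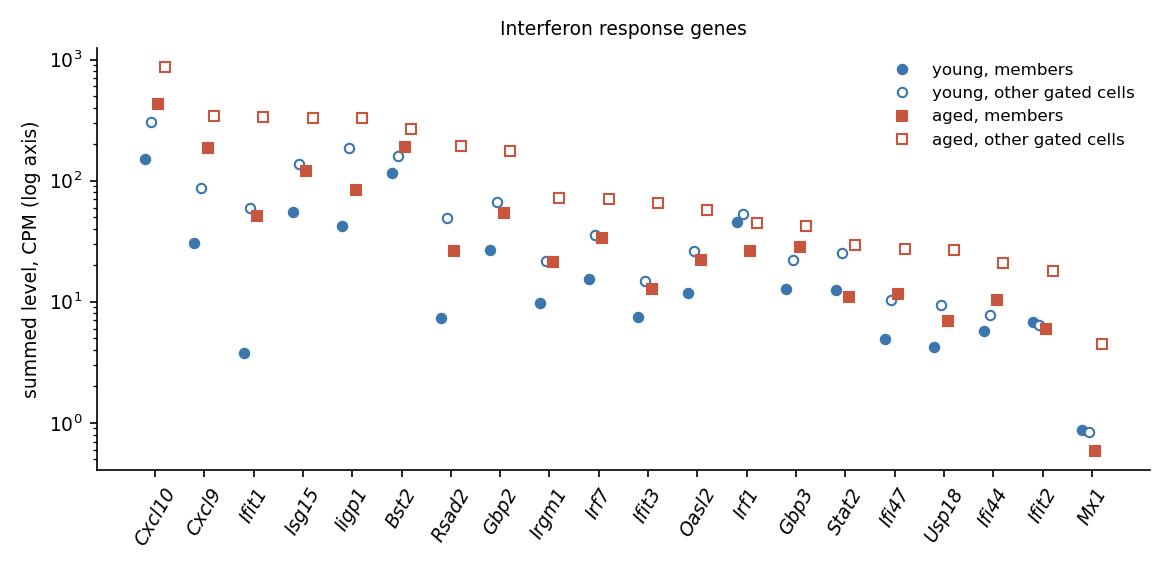
Summed level (y axis, CPM, log axis) of 20 interferon response genes (x axis) in members (filled) and other gated cells (open) of the young (circles) and aged library (squares). For most genes the aged library lies above the young one, and members lie below the other gated cells of the same library.

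Secreted and matrix genes gave a mixed picture with age. Of 25 SASP genes, 6 were higher in aged members (Plau, Spp1, Plat, Igfbp4, Timp1 and Ccl2) and 2 lower (Mmp3 and Mmp13). In the other gated cells 4 of 25 were higher and 4 lower. Spp1 had a ratio of 1.94 in members and 3.75 in the others. The 10 highest cells held 74.1% of its UMIs in young and 61.3% in aged members. Timp1, the metalloproteinase inhibitor, was at 2716 CPM in young and 4592 CPM in aged members, a ratio of 1.69. Mmp3, stromelysin-1, was at 1193 and 603 CPM, a ratio of 0.505 against 0.463 in the other gated cells. Plau, the urokinase gene, was at 72.3 and 206 CPM, a ratio of 2.85, which was 1.01 among the cells with under 3 UMIs of other classes. Among those cells, where 1119 of all 8663 genes tested were higher and 1072 lower, 4 SASP genes were higher and 7 lower. There 7 of 12 glycolytic genes, of which 0 passed over all members, were higher. Of 24 matrix genes Cthrc1 (1.51) and Col14a1 (1.58) were higher and Lum (0.646) lower, and 3 and 4 of 24 were in those cells. In the other gated cells 0 of 24 were higher and 2 lower. Crabp1 was at 269 CPM in young and 85.4 CPM in aged members. The papillary and follicle mesenchyme list, to which it belongs, had 8 of 9 tested genes lower, with a median log2 ratio of -1.65. In the other gated cells 4 of 9 were lower, with a median of -0.42. In cells with under 3 UMIs of other classes 5 of 9 were lower and 3 higher. Several of these rested on few cells, such as Coch, for which 1 young member held 88.9% of the UMIs.

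The genes with the widest age ratios in members mostly reported single cells. The 12 highest with an interval beyond 1.5-fold were Mctp1, Xirp2, Ccl20, Rgs5, Tmem132d, Grm7, Nrk, Cd36, Sult1e1, Sorcs1, Myoc and Ifit1. For Rgs5, a pericyte marker, 1 aged member held 96.1% of the UMIs, and for Mctp1 95.8%. The 12 lowest were Il17a, Wif1, Sprr2d, Il17f, Il23r, Slc6a7, Cxcr6, Coch, Igfbp2, Icos, Col11a1 and Adgrb3. Il17a, a cytokine of T cells, was at 60.3 CPM in young members, with 76.8% of its UMIs in 1 cell, and at 0.0731 CPM in aged members. The T and NK markers of the young members came from 6 cells, as given above. A second ranking, chosen after these values were seen, kept genes with an interval beyond 1.5-fold of which no member held over 10% of the UMIs, 49 higher and 42 lower. It was led by Prg4, the lubricin gene, at 576 CPM in young and 1860 CPM in aged members, a ratio of 3.23 (3.12 to 3.34) against 1.40 in the other gated cells. Cited2, a CBP/p300 interactor, was at 29.1 and 67.4 CPM. Lowest was Draxin, a secreted guidance factor gene, at 13.1 and 2.41 CPM, a ratio of 0.184 (0.119 to 0.276) against 0.200 in the other gated cells. Epas1, encoding HIF-2 alpha, was at 68.8 and 26.3 CPM, a ratio of 0.383 (0.333 to 0.440) against 0.366 in the others.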

How the data were processed

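Single cells of 1 young and 1 aged wound library were sequenced with a 3′ droplet assay. What the authors deposited are unnormalized counts of UMIs for each gene in each barcode. Per the file headers the tables come from Cell Ranger 8.0.1. GRCm38/mm10, Seurat 4, STAR and Cell Ranger 9.0 are listed in the submitters' processing notes. The libraries held 4932 and 4379 barcodes with 111810068 and 107865898 UMIs. Cells with at least 500 UMIs, at least 200 genes and under 15% mitochondrial UMIs were kept, 4661 young and 4210 aged. Doublets were scored with Scrublet in scanpy 1.11.5 and kept.

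UMIs were summed over cells and given as CPM. Ratios carry exact conditional binomial intervals, levels exact Poisson and shares Clopper-Pearson intervals. In log2 ratios a sum of 0 was set to 3 counts. The gene comparison was checked on simulated Poisson counts with planted changes. These leave out the clumping of UMIs in single cells, so the check does not cover it. TMM factors came from edgeR 4.0.16, in Python 3.11.15 otherwise. Cells were thinned by drawing 5000 UMIs without replacement; members under that depth, 4 young and 3 aged, and 35 and 29 other gated cells were left out there. Neutrophil-rich barcodes gave the background of detection.

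The members and the 23 gene lists were chosen with earlier results of these data known. Beside lists, the text names the 12 highest and 12 lowest ratios of each comparison, leaving out mitochondrial, ribosomal protein, haemoglobin, immunoglobulin and unnamed genes. Symbols are those of the deposited tables; older histone symbols on the lists were counted under present ones. Promoters are from RefSeq and leave out chromosome 18. The values of 1 gene of the interferon list are not reported here; it is part of that list's counts and medians.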

Additional observations from a re-analysis of the deposited data

How the results depend on the processing

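With 1 library per age, each difference is between 2 libraries, and the depth of single members limits genes seen in few cells. No paired analysis was possible because each age has 1 library with no replicate number. The aged/young ratio of the share of members was above 1 under every alternative run, from 1.74 with the top 20% as members to 2.95 without cells with 3 or more UMIs of other classes, the only setting that moved it beyond its counting interval. The ratio for the share with more G2/M UMIs stayed within its interval in all. Cdkn1a in members over others had a young ratio of 1.77 with the top 5%, 1.24 with the top 20%, 1.30 scored on thinned cells, 1.56 with a collagen gate of 2%, 1.55 without the top 4% of doublet scores, 1.21 with TMM and 1.36 as a mean of per-cell CPM. Its aged ratio was 1.26 with the top 5%, 0.989 with the top 20%, 1.21 without the top doublet scores, 1.09 without cells with UMIs of other classes, 1.04 with TMM and 1.26 as a per-cell mean. Genes lower in members numbered 563 with the top 20%, 645 scored on thinned cells and 565 without cells with UMIs of other classes. At a fold of 2, 754 genes were higher and 441 lower. Genes higher and lower in aged members numbered 1189 and 1362 at 20 UMIs, 319 and 291 at 200 UMIs and 244 and 295 at a fold of 2, and 1119 were higher without cells with UMIs of other classes. The interferon median in aged members was 0.58 with a collagen gate of 2% and 1.43 without cells with UMIs of other classes. The young Cdkn2a ratio turned to 1.73 in that last setting, where members were chosen anew and 23 were young. That setting also moved the age counts of the cell cycle, secretory, matrix and glycolysis lists, as given above, and its cut fell unequally on the libraries. The cause of these moves was not tested, except that settings with other UMI minimums or folds count other genes. Alternatives that drop each gene's highest member, thin to 20000 UMIs or ask for 4 scoring genes were chosen after seeing the data, and none of them moved a result beyond its interval or 1.5 times its count.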
